A study of Homo sapiens with 8 samples.

Results

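The genes described here are 45 listed members of the TGF-beta, activin and BMP pathway, and 42 of them were among the 11818 genes of the deposited expression table. They were chosen by name, as ligands, receptors, proteins that store, release or trap ligands, SMADs, SMAD regulators and targets. Earlier results of these data were known when they were chosen. The ligand genes BMP7 and INHBA and the target gene ID4 had no row in the table. Poly(A)-selected RNA was sequenced from HCCLM3, a cultured line of human hepatocellular carcinoma cells selected for high metastatic potential. In 4 libraries, named siRNA, the cells had received a transiently transfected siRNA against circPTK2, a circular RNA made from the PTK2 gene. The other 4 libraries, named NC, carry the genotype label WT, and the labels do not say whether those cells received a control siRNA or no transfection: the treatment text is the same for all samples and names only the siRNA against circPTK2. No time after transfection is given. All 8 libraries come from this 1 line, and nothing says that replicates were separate cultures, so p-values measure how much these libraries vary, which may be technical variation only. The question was which downstream genes differ in level once circPTK2 is silenced.

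TGF-beta family ligands are secreted dimers that bring together type I and type II receptor kinases at the cell surface. TGF-beta and activin receptors phosphorylate SMAD2 and SMAD3, BMP receptors phosphorylate SMAD1 and SMAD5, and both sets join SMAD4 to enter the nucleus and regulate genes. TGF-beta is secreted in a latent form, held in the matrix by latent TGF-beta binding proteins, and is known in liver for restraint of hepatocyte growth and for fibrosis, while BMP6 is known as the signal that drives hepcidin production and so sets iron uptake.

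The 4 siRNA libraries lay close together, and the NC libraries lay in 2 pairs, called here the first (replicates 1 and 2) and the second (replicates 3 and 4). Spearman correlations across genes were 0.990 to 0.995 among siRNA libraries, 0.985 to 0.987 within the NC pairs and 0.919 to 0.938 between the NC pairs. Between siRNA and NC libraries they were 0.894 to 0.933, a range that overlaps the one between the NC pairs. Changes of genes that passed the test are therefore also given without the first and without the second NC pair. Mitochondrial transcripts made up 4.39% to 5.59% of the values in siRNA libraries, against 5.32% and 5.01% in NC replicates 1 and 2 and 1.96% and 2.19% in NC replicates 3 and 4; the part of this difference in the results below was not tested. The depth was 28077305 to 32532669 reads in siRNA libraries and 37087203 to 43512175 reads in NC libraries. The linear PTK2 messenger RNA, which does not measure circPTK2, stood at 210, 217, 219 and 204 scaled reads in siRNA replicates 1 to 4, against 178, 227, 175 and 161 in NC replicates 1 to 4 (log2 change 0.21, limma adjusted p = 0.167). Without NC replicate 2 that change was 0.31 and passed the test (limma adjusted p = 0.0154). It was 0.34 without the first NC pair (limma adjusted p = 0.00164) and 0.08 without the second (limma adjusted p = 0.51).

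Of 11 hepatocyte and hepatocellular carcinoma markers, 8 had a row, and APOA1, TTR and GPC3 had none. Their summed level was 2674 to 2756 scaled reads in siRNA libraries and 2936 to 5583 in NC libraries, nearly all of it from the keratin genes. Of the 8, 3 rose (ALB, SERPINA1 and HNF4A), 4 fell (AFP, APOB, TF and KRT8) and KRT18 did not pass; SERPINA1 and APOB entered the test through 1 group only. Of the markers of other cell types, 1 of 8 fibroblast genes (LUM, 15.5 to 25.5 in siRNA libraries and 20.3 to 64.0 in NC libraries), 1 of 6 endothelial genes (PECAM1, 3.25 to 4.93 and 7.53 to 19.8) and 1 of 6 leukocyte genes (CD68, 76.3 to 140 and 52.3 to 90.95) had a row. COL1A1, VWF, CDH5 and PTPRC, which define those cell types, had none. The part of these markers in the results was not tested, and in bulk RNA fewer cells of a kind and less RNA per cell cannot be told apart.

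A scaled read is the unit of the deposited values, reads divided by a scaled library size, so that the totals of the libraries are close to each other. Log2 changes are siRNA minus NC on the scale log2(value + 1), which understates the change of genes with low values, and a gene is said to have risen or fallen where the limma adjusted p over all genes was under 0.05. Fold values are ratios of group means of scaled reads. By that rule 14 of the 42 pathway genes (33.3%) rose, beside 21.7% of all 11812 genes tested, and 6 (14.3%) fell, beside 20.8%. In either direction that is 47.6% of the pathway genes and 42.5% of all genes. The median log2 change was 0.21 over the pathway genes and 0.01 over all genes. FST and PMEPA1 passed the filter on low values only through the siRNA libraries; without them 12 of 40 rose and 6 fell, with a median log2 change of 0.18. As such genes can only enter the test by differing, no p is given for them. The siRNA and NC values did not overlap for 18 of the 42 genes (42.9%), beside 43.3% of all genes. The share of pathway genes called was thus near the share of all genes called, and the results below are about single members and roles. Because the members were chosen with earlier results of these data known, these shares and medians are not those of an independent list.

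**Figure D1:**
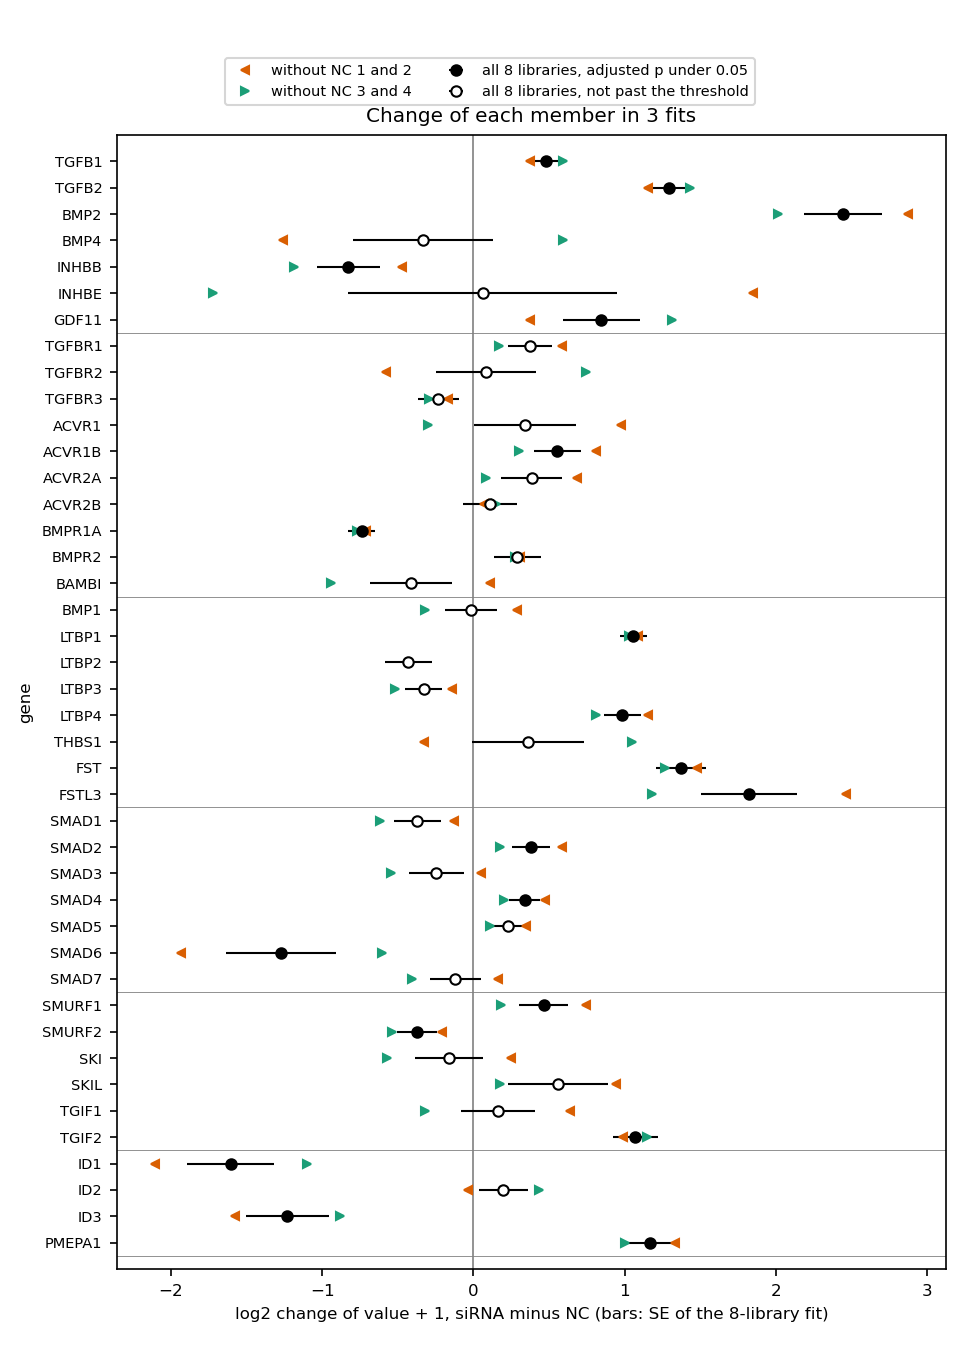
Log2 change (siRNA minus NC, horizontal axis) of the 42 pathway genes, grouped by role, with circles and SE bars for the fit on all 8 libraries (filled where it passed the test) and triangles for the fits without each NC pair. TGFB2, BMP2, LTBP1, FSTL3 and TGIF2 lie on the higher side in all 3 fits and ID1, ID3, SMAD6 and BMPR1A on the lower side, while BMP4, INHBE and TGFBR2 lie on opposite sides of 0 depending on the NC pair left in.

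Of the 7 ligand genes with a row, 4 rose (TGFB1, TGFB2, BMP2 and GDF11), 1 fell (INHBB) and 2 did not pass the test (BMP4 and INHBE), with a median log2 change of 0.48. BMP2 encodes a BMP ligand that signals through SMAD1 and SMAD5. It (chromosome 20, 6767664 to 6780280, plus strand; positions are GENCODE v29 on GRCh38) stood at 105, 98.5, 87.7 and 93.6 scaled reads in siRNA replicates 1 to 4, against 19.8, 26.8, 15.6 and 9.55 in NC replicates 1 to 4. Every siRNA library was above every NC library by a wide margin. BMP2 averaged 96.2 ± 7.45 scaled reads in siRNA libraries and 18 ± 7.26 in NC libraries (SD, n = 4 each), a 5.36-fold difference (log2 change 2.44, SE 0.26, limma adjusted p = 0.000184). The log2 change was 2.87 without the first NC pair and 2.01 without the second NC pair.

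TGFB2 and TGFB1 encode TGF-beta ligands of the latent kind. TGFB2 (chromosome 1, 218346235 to 218444619, plus strand) stood at 121, 126, 139 and 136 scaled reads in siRNA replicates 1 to 4, against 48.3, 47.0, 57.8 and 58.3 in NC replicates 1 to 4. The groups were well apart, with the second NC pair slightly above the first. TGFB2 averaged 130 ± 8.47 in siRNA libraries and 52.8 ± 6.05 in NC libraries (SD, n = 4 each), with a log2 change of 1.29 (SE 0.11, limma adjusted p = 5.13e-05), and the change was 1.15 and 1.43 without the first and the second NC pair. Its exons share 26.6% of their bases with the same-strand gene TGFB2-OT1, so reads there cannot be assigned to 1 of the 2 genes. TGFB1 (chromosome 19, 41301587 to 41353911, minus strand) stood at 121, 116, 101 and 107 scaled reads in siRNA libraries, against 70.0, 76.8, 86.8 and 84.6 in NC libraries. These groups did not overlap either, but the difference was smaller: 111 ± 9.17 in siRNA libraries and 79.5 ± 7.68 in NC libraries (SD, n = 4 each; log2 change 0.48, SE 0.10, limma adjusted p = 0.00579), with 0.37 and 0.59 without the first and the second NC pair.

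INHBB, which encodes the beta B subunit of activin B, was the ligand gene that fell. It stood at 54.4, 50.6, 54.4 and 56.6 scaled reads in siRNA libraries, against 133, 115, 63.6 and 88.6 in NC libraries, and all NC libraries were above all siRNA libraries. INHBB averaged 54.0 ± 2.51 in siRNA libraries and 100.2 ± 30.6 in NC libraries (SD, n = 4 each; log2 change -0.83, SE 0.21, limma adjusted p = 0.0119). The size of the change followed the NC pair, with -0.47 without the first NC pair and -1.18 without the second NC pair. GDF11, a ligand that acts through the activin receptors, stood at 44.5, 45.9, 42.3 and 33.1 scaled reads in siRNA libraries, against 15.8, 16.1, 33.5 and 29.6 in NC libraries. Here siRNA replicate 4 lay just below the highest NC library, so the groups overlapped although the gene rose (log2 change 0.85, SE 0.25, limma adjusted p = 0.026). The change in GDF11 was 0.38 without the first NC pair and 1.32 without the second. Leaving out siRNA replicate 1, 2 or 3 or NC replicate 1 ended the call, with a limma adjusted p of up to 0.0721.

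**Figure D2:**
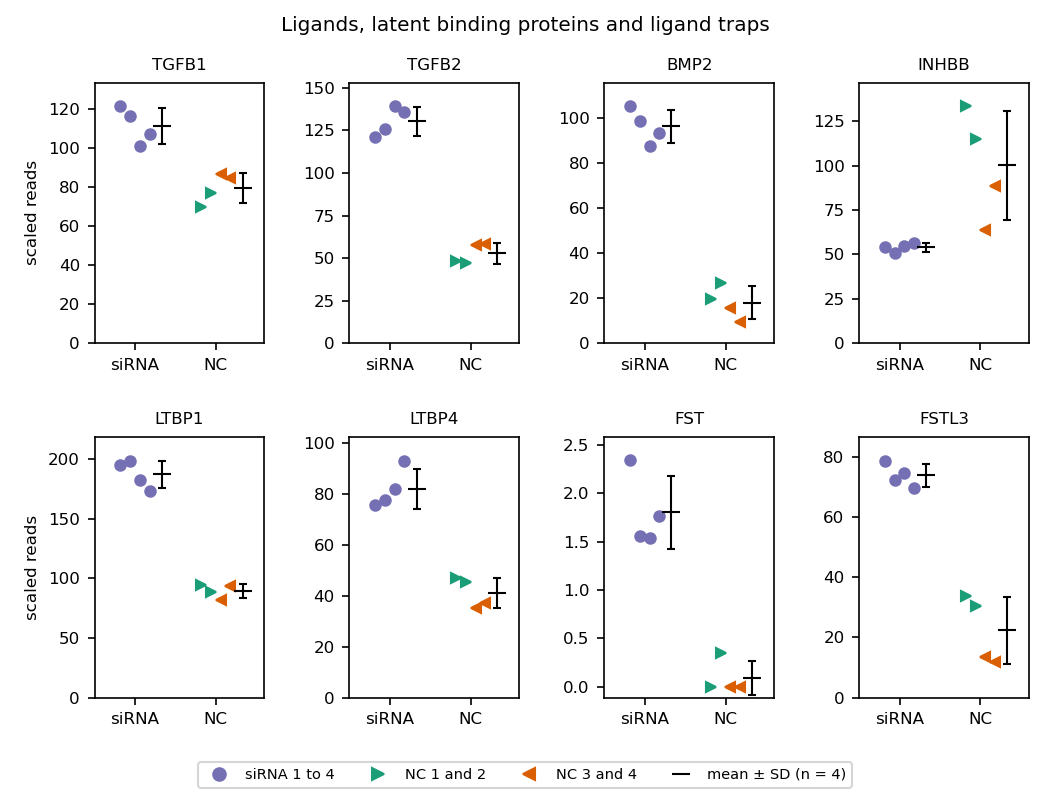
Scaled reads in each siRNA library and each NC library for ligand genes and for genes of ligand storage and trapping that passed the test. Vertical axes start at 0, or below 0 for FST, and bars show the mean and the SD over 4 libraries. FST entered the test through the siRNA libraries only. BMP2, TGFB2, LTBP1 and FSTL3 show siRNA values above every NC value, with BMP2 at 87.7 to 105 in siRNA libraries and 9.55 to 26.8 in NC libraries.

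Of 8 genes for proteins that store, release or trap ligands, 4 rose (LTBP1, LTBP4, FSTL3 and FST, the last through the filter named above) and 4 did not pass (BMP1, LTBP2, LTBP3 and THBS1). LTBP1 and LTBP4 encode latent TGF-beta binding proteins, which tether latent TGF-beta in the matrix. LTBP1 (chromosome 2, 32946972 to 33399509, plus strand) stood at 195, 198, 182 and 173 scaled reads in siRNA libraries, against 94.0, 88.6, 81.8 and 93.4 in NC libraries. Its values were tight in both groups and far apart between them, at 187 ± 11.6 in siRNA libraries and 89.4 ± 5.65 in NC libraries (SD, n = 4 each; log2 change 1.06, SE 0.09, limma adjusted p = 5.59e-05). Leaving out either NC pair left the change of LTBP1 at 1.09 and 1.03. LTBP4 stood at 75.6, 77.5, 81.8 and 93.1 scaled reads in siRNA libraries, against 46.8, 45.4, 35.1 and 37.1 in NC libraries. It averaged 82.0 ± 7.81 in siRNA libraries and 41.1 ± 5.84 in NC libraries (SD, n = 4 each; log2 change 0.98, SE 0.12, limma adjusted p = 0.000414), with 1.16 and 0.81 without the first and the second NC pair. The other members of this family did not pass with all libraries: LTBP2 averaged 0.803 in siRNA libraries and 1.42 in NC libraries (limma adjusted p = 0.054), and LTBP3 72.0 and 91.6 (limma adjusted p = 0.0595). LTBP3 passed the test without NC replicate 3 (log2 change -0.42, limma adjusted p = 0.018). LTBP2 was low, with 21, 21, 19 and 33 reads in siRNA libraries. Without siRNA replicate 4 its log2 change was -0.53, but it entered that fit through the NC libraries only, so no p is given.

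FSTL3 and FST encode secreted proteins that bind activins and keep them from their receptors. FSTL3 (chromosome 19, 676365 to 683399, plus strand) stood at 78.7, 72.3, 74.5 and 69.7 scaled reads in siRNA libraries, against 33.6, 30.3, 13.3 and 11.9 in NC libraries. All siRNA libraries were above all NC libraries, and the NC pairs themselves lay more than 2-fold apart. FSTL3 averaged 73.8 ± 3.84 in siRNA libraries and 22.3 ± 11.3 in NC libraries (SD, n = 4 each), a 3.31-fold difference (log2 change 1.82, SE 0.32, limma adjusted p = 0.00214), and the log2 change was 2.46 without the first NC pair and 1.18 without the second NC pair. FST was near the limit of detection, with 66, 48, 50 and 49 reads in siRNA libraries, against 0, 13, 0 and 0 reads in NC libraries. In scaled reads these are 2.35, 1.56, 1.54 and 1.77 in siRNA libraries, against 0, 0.350, 0 and 0 in NC libraries, and a count of 0 allows up to 3 reads in that library, counting error only.

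Among 10 receptor genes 1 rose (ACVR1B), 1 fell (BMPR1A) and 8 did not pass the test, with a median log2 change of 0.20. BMPR1A, a type I receptor for BMP2 and BMP4 also called ALK3, stood at 22.8, 22.1, 22.8 and 25.2 scaled reads in siRNA libraries, against 40.8, 39.6, 39.1 and 38.1 in NC libraries. Its NC libraries lay within a narrow range, unlike those of most members, and every one was above every siRNA library. BMPR1A (chromosome 10, 86756601 to 86932838, plus strand) averaged 23.2 ± 1.34 in siRNA libraries and 39.4 ± 1.12 in NC libraries (SD, n = 4 each; log2 change -0.74, SE 0.09, limma adjusted p = 0.000336). The change was -0.71 and -0.77 without the first and the second NC pair. ACVR1B, the type I activin receptor also called ALK4, stood at 57.1, 58.2, 52.7 and 57.1 scaled reads in siRNA libraries, against 40.7, 50.7, 31.5 and 31.9 in NC libraries. The groups did not overlap, although NC replicate 2 came close to the lowest siRNA library. ACVR1B averaged 56.3 ± 2.44 in siRNA libraries and 38.7 ± 9.06 in NC libraries (SD, n = 4 each; log2 change 0.56, SE 0.15, limma adjusted p = 0.0186), with 0.81 and 0.30 without the first and the second NC pair. With siRNA replicate 1 or siRNA replicate 2 left out it missed the threshold (limma adjusted p = 0.0511 and 0.0542).

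TGFBR1, the type I TGF-beta receptor, was the one gene whose groups did not overlap without passing the test. It stood at 35.5, 35.3, 38.0 and 37.0 scaled reads in siRNA libraries, against 34.7, 30.1, 21.3 and 26.9 in NC libraries (log2 change 0.38, limma adjusted p = 0.064). Without NC replicate 1 the change was 0.48 and passed (limma adjusted p = 0.022), as did ACVR2A at 0.54 and BMPR2 at 0.42 (limma adjusted p = 0.0386 and 0.0336). Both are type II receptors, for activins and for BMPs. Without the first and the second NC pair the change was 0.59 and 0.17 for TGFBR1, 0.69 and 0.08 for ACVR2A, and 0.31 and 0.27 for BMPR2, and each passed only without the first. With all libraries the 4 genes TGFBR3, ACVR2A, ACVR2B and BMPR2 had log2 changes of -0.23, 0.38, 0.11 and 0.29 and did not pass (limma adjusted p = 0.197, 0.152, 0.655 and 0.161).

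Of the 7 SMAD genes, 2 rose (SMAD2 and SMAD4), 1 fell (SMAD6) and 4 did not pass (SMAD1, SMAD3, SMAD5 and SMAD7), with a median log2 change of -0.12. SMAD2, which carries the TGF-beta and activin signal, stood at 82.8, 84.9, 89.4 and 85.7 scaled reads in siRNA libraries, against 76.0, 75.7, 58.7 and 54.8 in NC libraries. SMAD4, the partner shared by both branches, stood at 64.6, 66.3, 64.2 and 59.8 in siRNA libraries, against 54.1, 56.3, 46.9 and 44.3 in NC libraries. In both genes the groups did not overlap, but the steps were small. The log2 change of SMAD2 was 0.38 (SE 0.12, limma adjusted p = 0.0355) and that of SMAD4 was 0.34 (SE 0.10, limma adjusted p = 0.0273). Without the first NC pair the changes were 0.59 and 0.47; without the second they were 0.17 and 0.20 and did not pass (limma adjusted p = 0.0713 and 0.0569). SMAD2 also missed the threshold without any 1 siRNA library, NC replicate 3 or NC replicate 4 (limma adjusted p up to 0.0938), and SMAD4 without siRNA replicate 1, 2 or 3 or NC replicate 3 or 4 (up to 0.0809). Among the SMADs that did not pass, SMAD1 averaged 19.9 scaled reads in siRNA libraries and 26.4 in NC libraries (limma adjusted p = 0.0848). It passed without NC replicate 4 (log2 change -0.47, limma adjusted p = 0.0393), and its change was -0.13 and -0.62 without the first and the second NC pair.

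SMAD6, an inhibitory SMAD that acts mainly against BMP signals and is itself known as a BMP target, fell. It stood at 2.74, 2.25, 3.39 and 2.35 scaled reads in siRNA libraries, against 5.97, 3.44, 13.9 and 12.1 in NC libraries. The groups did not overlap, by a small margin at NC replicate 2, and the NC pairs lay more than 2-fold apart. SMAD6 averaged 2.68 ± 0.519 in siRNA libraries and 8.86 ± 4.97 in NC libraries (SD, n = 4 each; log2 change -1.27, SE 0.36, limma adjusted p = 0.0211), with -1.94 and -0.61 without the first and the second NC pair. It missed the threshold without siRNA replicate 1, 2 or 4 (limma adjusted p up to 0.0591). SMAD7, the inhibitory SMAD that acts on both branches, stood at 12.8 to 14.6 scaled reads in siRNA libraries and at 11.8 to 18.7 in NC libraries (log2 change -0.12, limma adjusted p = 0.594).

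Of the 4 target genes with a row, 2 fell (ID1 and ID3), 1 rose (PMEPA1, through the same filter) and 1 did not pass (ID2). ID1, ID2 and ID3 encode helix-loop-helix proteins without a DNA-binding domain, and they are known as immediate targets of BMP and SMAD1 or SMAD5. ID1 (chromosome 20, 31605283 to 31606515, plus strand) stood at 27.0, 20.9, 28.6 and 32.9 scaled reads in siRNA libraries, against 65.9, 53.1, 140 and 102 in NC libraries. Every NC library was above every siRNA library, and NC replicates 3 and 4 were the highest. ID1 averaged 27.3 ± 4.97 in siRNA libraries and 90.3 ± 39.3 in NC libraries (SD, n = 4 each), a 3.30-fold lower level (log2 change -1.61, SE 0.29, limma adjusted p = 0.00251). The log2 change was -2.11 without the first NC pair and -1.10 without the second NC pair.

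ID3 (chromosome 1, 23557918 to 23559794, minus strand) stood at 30.8, 25.4, 39.9 and 36.7 scaled reads in siRNA libraries, against 84.4, 44.3, 86.3 and 115 in NC libraries. NC replicate 2 was the lowest NC library and still above the highest siRNA library. ID3 averaged 33.2 ± 6.45 in siRNA libraries and 82.5 ± 29.1 in NC libraries (SD, n = 4 each; log2 change -1.23, SE 0.27, limma adjusted p = 0.00701), with -1.58 and -0.88 without the first and the second NC pair. ID2 stood at 15.0 to 17.0 scaled reads in siRNA libraries and at 9.74 to 16.3 in NC libraries, which overlapped (log2 change 0.20, limma adjusted p = 0.363). PMEPA1, a TGF-beta target whose protein keeps SMAD2 and SMAD3 from the receptor, was near the limit of detection, with 33, 53, 72 and 31 reads in siRNA libraries, against 18, 3, 0 and 0 reads in NC libraries. In scaled reads these are 1.18, 1.72, 2.22 and 1.12 in siRNA libraries, against 0.473, 0.0807, 0 and 0 in NC libraries, without overlap.

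The promoters of ID1, ID3 and SMAD6 are shown because these 3 BMP targets were all lower in siRNA libraries. They are RefSeq sequences of GRCh38.p14, from 250 bases before to 50 bases after the annotated start, printed 5′ to 3′ on the strand of the gene, with motif matches in capitals. The regions are chr20:31605039-31605338 on the plus strand for ID1, chr1:23559452-23559751 on the minus strand for ID3 and chr15:66701986-66702285 on the plus strand for SMAD6.
ID1: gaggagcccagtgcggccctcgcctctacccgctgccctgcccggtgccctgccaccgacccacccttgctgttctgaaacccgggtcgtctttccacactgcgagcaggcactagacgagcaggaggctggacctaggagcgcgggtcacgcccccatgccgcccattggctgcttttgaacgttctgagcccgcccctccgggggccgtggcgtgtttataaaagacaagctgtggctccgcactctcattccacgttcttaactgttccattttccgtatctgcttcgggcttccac
ID3: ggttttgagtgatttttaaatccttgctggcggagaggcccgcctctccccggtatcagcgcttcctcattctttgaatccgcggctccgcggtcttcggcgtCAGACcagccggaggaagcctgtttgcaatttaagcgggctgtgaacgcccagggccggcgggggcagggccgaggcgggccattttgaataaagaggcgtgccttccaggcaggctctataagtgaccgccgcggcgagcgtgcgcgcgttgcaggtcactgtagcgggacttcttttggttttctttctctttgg
SMAD6: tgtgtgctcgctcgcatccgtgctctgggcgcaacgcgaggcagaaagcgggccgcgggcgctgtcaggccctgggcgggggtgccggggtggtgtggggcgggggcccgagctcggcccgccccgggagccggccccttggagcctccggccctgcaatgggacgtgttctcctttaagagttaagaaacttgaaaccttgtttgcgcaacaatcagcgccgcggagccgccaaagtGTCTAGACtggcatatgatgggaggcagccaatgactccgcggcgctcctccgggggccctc
On both strands the motifs searched were GTCTAGAC, the palindrome bound by SMAD3 and SMAD4, CAGAC, a short SMAD-binding element, and GGCGCC, a GC-rich element of BMP SMADs. CAGAC shares its last 4 letters with GTCTAGAC but is not contained in it. The SMAD6 promoter held GTCTAGAC at base 239 of the printed window, which 0.202% of 35116 RefSeq promoters hold, and it was the only one of the 38 member genes with a promoter in the table to hold it. The ID3 promoter held CAGAC at base 104. CAGAC stood in 22 of the 38 member promoters (57.9%), beside 45.3% of all promoters, and GGCGCC in 18 (47.4%), beside 19.2%. The 35116 promoters were not limited to genes with a row in the expression table, nor matched for base composition. These shares are therefore not like for like and do not show an enrichment in the members. None of the 3 motifs was in the ID1 window, which says only that these letters are not in this window.

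**Figure D3:**
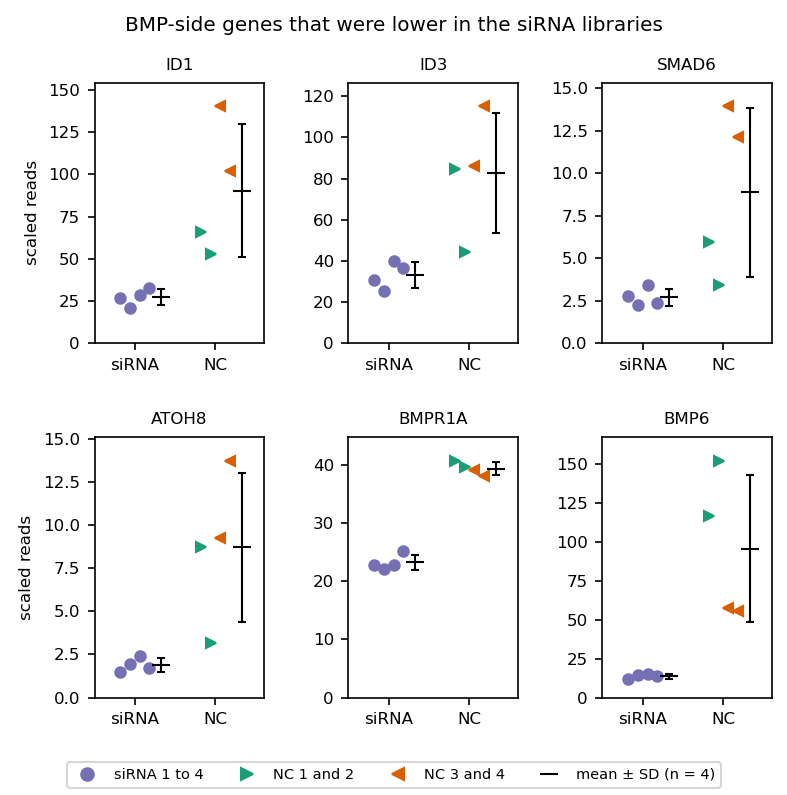
Scaled reads (vertical axes) in each siRNA library and each NC library for 6 genes of the BMP branch chosen because they fell, with bars for the mean and the SD over 4 libraries. BMP2 and BMPR1B, which rose, are not drawn. ID1 lies at 20.9 to 32.9 in siRNA libraries and 53.1 to 140 in NC libraries.

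Among 6 genes that regulate SMADs, 2 rose (SMURF1 and TGIF2), 1 fell (SMURF2) and 3 did not pass (SKI, SKIL and TGIF1). TGIF2, a homeobox repressor that binds TGF-beta SMADs, stood at 32.4, 34.6, 35.1 and 32.1 scaled reads in siRNA libraries, against 17.6, 12.0, 14.0 and 19.2 in NC libraries. The groups were well apart, at 33.6 ± 1.51 in siRNA libraries and 15.7 ± 3.28 in NC libraries (SD, n = 4 each; log2 change 1.07, SE 0.15, limma adjusted p = 0.000677). The change was 0.99 and 1.15 without the first and the second NC pair, and 8.14% of the TGIF2 exon bases are shared with the same-strand readthrough gene TGIF2-RAB5IF. The related repressor TGIF1 stood at 131, 125, 118 and 121 in siRNA libraries, against 142, 167, 84.5 and 73.7 in NC libraries, between the NC pairs (log2 change 0.16, limma adjusted p = 0.628).

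SMURF1 and SMURF2 encode ubiquitin ligases that mark SMADs and receptors for breakdown, and 1 rose while the other fell. SMURF1 stood at 529, 526, 504 and 485 scaled reads in siRNA libraries, against 415, 486, 328 and 284 in NC libraries, with NC replicate 2 just above the lowest siRNA library. SMURF2 stood at 16.7, 18.0, 19.3 and 17.0 in siRNA libraries, against 27.9, 24.7, 22.3 and 19.0 in NC libraries, with a similar overlap at NC replicate 4. Both calls were close to the threshold: 0.46 for SMURF1 (SE 0.16, limma adjusted p = 0.0438) and -0.37 for SMURF2 (SE 0.13, limma adjusted p = 0.0484), on the log2 scale. SMURF1 did not pass without any 1 siRNA library, NC replicate 3 or NC replicate 4 (limma adjusted p up to 0.103), and its change was 0.74 and 0.19 without the first and the second NC pair. SMURF2 did not pass without any 1 library other than NC replicate 4 (limma adjusted p up to 0.119), and its change was -0.20 and -0.54. The SMURF1 exons share 11.7% of their bases with TRRAP on the opposite strand. SKIL, a repressor of SMAD-driven transcription, stood at 62.1 to 103 in siRNA libraries and at 34.0 to 113 in NC libraries (log2 change 0.56, limma adjusted p = 0.207), and passed only without NC replicate 2 among the fits that left out 1 library (0.86, limma adjusted p = 0.0212). Its change was 0.94 and 0.17 without the first and the second NC pair.

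The siRNA mean lay between the means of the 2 NC pairs in 12 of the 42 genes (28.6%), beside 29.2% of all genes. In 10 of the 42 genes (23.8%, beside 15.1% of all genes) the NC pairs did not overlap and their means differed at least 2-fold. Of these 10, PMEPA1 entered the test through the siRNA libraries only, with 18, 3, 0 and 0 reads in NC libraries. It passed the test, as did FSTL3, SMAD6 and ID1. The other 6 (TGFBR2, ACVR1, BAMBI, BMP4, INHBE and THBS1) did not, and in each the siRNA mean lay between the means of the NC pairs. As these 6 were picked because their NC pairs lay apart, passing against 1 pair follows largely from that choice. The p-values of fits that leave out NC libraries, here and in the next 2 paragraphs, are therefore descriptions and no further evidence. TGFBR2, the type II TGF-beta receptor, stood at 153, 155, 145 and 141 scaled reads in siRNA libraries, against 80.6, 97.2, 239 and 206 in NC libraries. The siRNA libraries were above both libraries of 1 NC pair and below both of the other. The log2 change of TGFBR2 was 0.08 with all libraries (limma adjusted p = 0.86), -0.57 without the first NC pair (limma adjusted p = 0.00011) and 0.74 without the second NC pair (limma adjusted p = 8.83e-05).

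BMP4, a BMP ligand, had the same layout, with 7.76, 7.29, 7.15 and 8.68 scaled reads in siRNA libraries, against 5.02, 4.52, 16.8 and 23.4 in NC libraries. INHBE, the activin beta E subunit known for its expression in liver, had the opposite one, with 2.96, 2.12, 4.25 and 4.74 in siRNA libraries, against 18.8, 9.63, 0.238 and 0.197 in NC libraries. Without the first NC pair the log2 changes were -1.26 for BMP4 (limma adjusted p = 4.03e-05) and 1.85 for INHBE. In that fit INHBE entered the test through the siRNA libraries only, so no p is given for it. The NC libraries left held 11 and 8 INHBE reads. Without the second NC pair the log2 changes of BMP4 and INHBE were 0.59 and -1.72 (limma adjusted p = 0.00659 and 0.00126). BMP4 thus passed in both directions, and the sign of INHBE also turned. With all libraries they were -0.33 and 0.06 (limma adjusted p = 0.592 and 0.963).

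ACVR1, a type I receptor of BMPs and activins, stood at 69.8, 68.6, 61.4 and 64.2 scaled reads in siRNA libraries, against 68.2, 96.7, 39.7 and 27.4 in NC libraries (log2 change 0.34, limma adjusted p = 0.449). BAMBI, a pseudoreceptor without a kinase domain, stood at 56.9, 53.5, 48.0 and 52.6 in siRNA libraries, against 104, 99.5, 42.7 and 55.7 in NC libraries (log2 change -0.42, limma adjusted p = 0.249). THBS1, the matrix protein thrombospondin 1 that releases TGF-beta from its latent form, stood at 252, 267, 245 and 223 in siRNA libraries, against 137, 103, 234 and 406 in NC libraries (log2 change 0.36, limma adjusted p = 0.461). In each of these 3 genes the siRNA libraries lay close together and the NC libraries far apart. ACVR1 passed without the first NC pair (0.98, limma adjusted p = 8.7e-05) and not without the second NC pair (-0.30, 0.0716). BAMBI and THBS1 passed without the second NC pair (-0.94 and 1.05) and not without the first NC pair (0.11 and -0.32). With all but NC replicate 3 BAMBI passed at -0.65 (limma adjusted p = 0.0411), and with all but NC replicate 4 THBS1 passed at 0.72 (limma adjusted p = 0.0474).

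**Figure D4:**
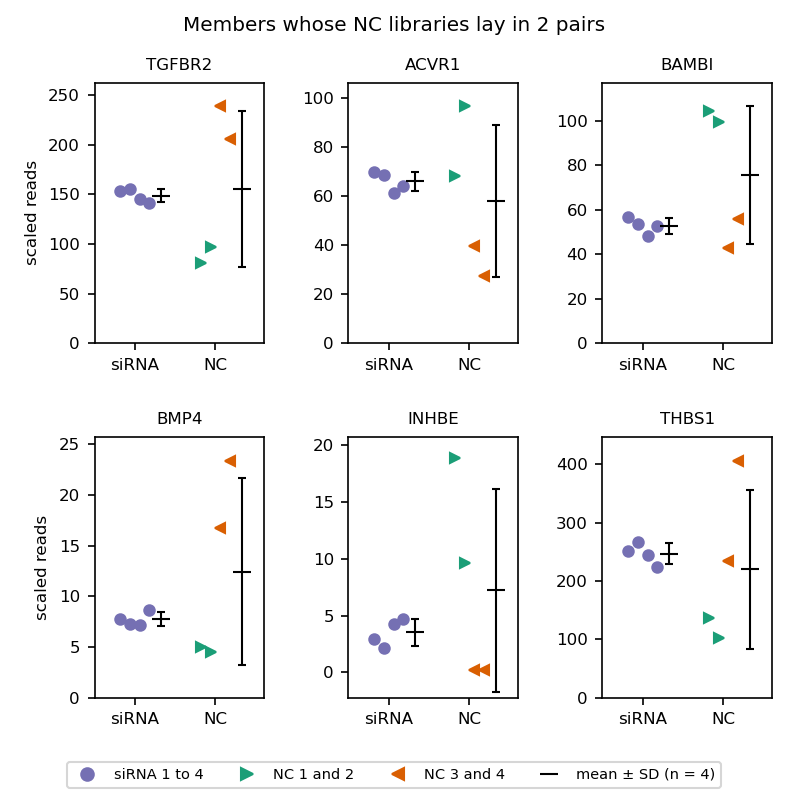
Scaled reads (vertical axes) in each siRNA library and each NC library for the 6 pathway genes whose NC pairs differed at least 2-fold and that did not pass the test, with NC replicates 1 and 2 and NC replicates 3 and 4 in different symbols and bars for the mean and the SD over 4 libraries. In each panel the siRNA mean lies between the means of the NC pairs, as for TGFBR2 at 141 to 155 in siRNA libraries and 80.6 to 239 in NC libraries.

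Across the pathway genes the siRNA libraries were the more uniform group. The SD of the log2 values was larger in NC than in siRNA libraries for 38 of 42 genes (90.5%), beside 84.7% of all genes, with a median SD of 0.09 in siRNA libraries and 0.33 in NC libraries. Without the first NC pair, 23 of 41 pathway genes tested were higher and 7 lower, beside 34.0% and 32.1% of all genes. The 23 include INHBE, FST and PMEPA1, which entered that fit through the siRNA libraries only. Without the second NC pair, 15 were higher and 15 lower, beside 30.2% and 27.7%. Both fits use the same siRNA libraries. In both, 11 genes (26.8% of 41, beside 20% of all genes) passed as higher (TGFB1, TGFB2, BMP2, GDF11, ACVR1B, LTBP1, LTBP4, FST, FSTL3, TGIF2 and PMEPA1) and 5 (12.2%, beside 17.4%) as lower (INHBB, BMPR1A, SMAD6, ID1 and ID3). FST and PMEPA1 again entered through the siRNA libraries only. Another 5 (12.2%, beside 6%) passed in opposite directions (BMP1, BMP4, INHBE, TGFBR2 and TGIF1), with INHBE higher only in the fit that it entered through the siRNA libraries. BMP1, a metalloprotease that cleaves procollagen and not a BMP ligand, stood at 51.6 to 57.9 scaled reads in siRNA libraries and at 42.1 to 74.0 in NC libraries.

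**Figure D5:**
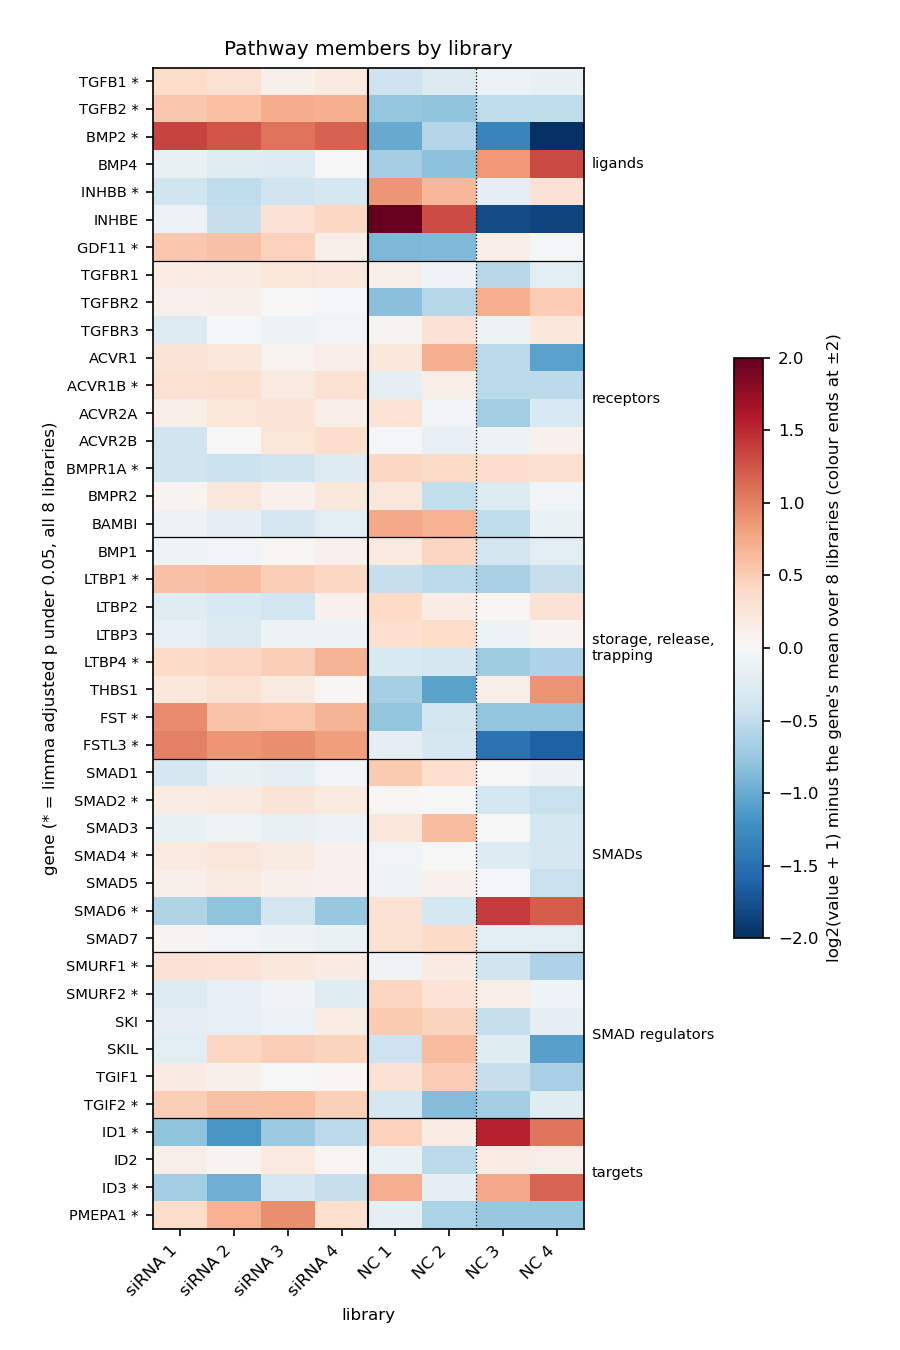
Log2(value + 1) of the 42 pathway genes (rows, by role) in the 4 siRNA and the 4 NC libraries (columns), shown relative to the mean of each gene over the 8 libraries. The siRNA columns look alike, while NC replicates 1 and 2 differ from NC replicates 3 and 4 in rows such as INHBE, BMP4, TGFBR2 and FSTL3.

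Per kilobase of exon, the most abundant pathway messenger RNA in siRNA libraries was SMURF1 at 81.4 scaled reads per kilobase, followed by TGFB1 at 34.4 and TGFBR2 at 31.6. In NC libraries the order turned with the pair: SMURF1 was at 71.8 and ID1 at 48.2 in the first, and ID1 at 98.3, ID3 at 56.1 and SMURF1 at 48.7 in the second. On the same scale BMP2 stood at 26.7 in siRNA libraries and 4.99 in NC libraries, and ID1 at 22.2 and 73.3. TGFB1 and TGFB2 stood at 34.4 and 25.3 in siRNA libraries and at 24.6 and 10.3 in NC libraries, and ACVR2B, LTBP2 and PMEPA1 stood under 0.4 in both groups. Lengths are unions of all annotated exons, so a gene with many annotated transcripts, such as SMAD2, has a low value per kilobase.

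Changes were also set beside those of neighbouring genes. The median log2 change of the genes within 5 Mb of a pathway gene ran from -0.58 to 0.76. Of the 20 pathway genes that passed the test, FST and PMEPA1 among them, 12 had the sign of their neighbours. The same share over all genes that passed was not computed, so nothing is concluded from this count. BMP2 changed by 2.44 beside a neighbour median of 0.44, ID1 by -1.61 beside 0.12, and FSTL3 by 1.82 beside -0.58, on the log2 scale.

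Other genes of the pathway, taken from a list of 83, had a row in 41 cases, and 40 were tested. Of these 11 rose (27.5%) and 8 fell (20.0%), beside 21.7% and 20.8% of all genes. This list too was made with earlier results of these data known. BMP6, the BMP ligand of iron control in liver, fell. It stood at 11.6, 14.2, 15.0 and 13.6 scaled reads in siRNA libraries, against 117, 152, 57.3 and 55.7 in NC libraries, with no overlap in either NC pair. BMP6 averaged 13.6 ± 1.44 in siRNA libraries and 95.5 ± 47.3 in NC libraries (SD, n = 4 each), a 7.04-fold lower level (log2 change -2.60, SE 0.32, limma adjusted p = 0.000354), and -1.99 and -3.21 without the first and the second NC pair. AMH, anti-Müllerian hormone, averaged 0.576 ± 0.143 and 4.39 ± 2.41 in siRNA and NC libraries; it entered the test only through the NC libraries, so no p is given. Among other receptors and co-receptors 3 of 6 rose and 1 fell. BMPR1B, a type I BMP receptor, averaged 22.9 ± 1.58 in siRNA libraries and 17.4 ± 2.84 in NC libraries (SD, n = 4 each; log2 change 0.39, limma adjusted p = 0.0381, named after its values were seen), and the change was 0.51 and 0.27 without the first and the second NC pair. It did not pass without the second pair (limma adjusted p = 0.0966), or without any 1 library other than NC replicate 2 (limma adjusted p up to 0.109). FKBP1A, which binds the type I receptors and holds them inactive, averaged 253 ± 22.3 in siRNA libraries and 120 ± 24.7 in NC libraries (SD, n = 4 each; log2 change 1.09, limma adjusted p = 0.000536, and 1.18 and 1.00 without the first and the second NC pair). Of its exon bases 16.8% are shared with other genes. SNW1, a nuclear protein that binds SMADs, averaged 119 ± 8.22 in siRNA libraries and 77.7 ± 4.81 in NC libraries (log2 change 0.61, limma adjusted p = 0.000901, and 0.67 and 0.55 without each NC pair), and 4 of 16 other SMAD regulators rose and 1 fell.

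Of 12 other known targets of the pathway, 3 rose, 3 fell and 6 did not pass. MMP2, a gelatin-cutting metalloprotease, averaged 12.6 ± 1.21 scaled reads in siRNA libraries and 1.13 ± 0.956 in NC libraries (SD, n = 4 each; log2 change 2.78, limma adjusted p = 0.000206), and its change was 2.20 and 3.36 without the first and the second NC pair. The NC pairs of MMP2 lay 6.09-fold apart, with 0.316, 0.323, 2.17 and 1.72 scaled reads in NC replicates 1 to 4. In the fit without the second NC pair MMP2 entered through the siRNA libraries only. FN1, fibronectin, averaged 4232 ± 226 in siRNA libraries and 7797 ± 541 in NC libraries (log2 change -0.88, limma adjusted p = 0.000181), with -0.80 and -0.96 when each NC pair was left out. The other 4 are named here after their values were seen. KLF10, a TGF-beta-inducible transcription factor, rose with 610 ± 37.7 in siRNA libraries and 205 ± 159 in NC libraries (log2 change 1.97, limma adjusted p = 0.0195; 0.052 and 0.0509 without siRNA replicate 1 and 2), and SNAI2, a repressor of epithelial genes, with 20.5 ± 2.55 and 4.92 ± 3.03 (log2 change 2.01, limma adjusted p = 0.00245). The NC pairs differed more than 2-fold in both, and without the first and the second pair the change was 3.09 and 0.86 for KLF10 and 2.65 and 1.37 for SNAI2. TGFBI, a matrix protein named for its induction by TGF-beta, fell with 130 ± 21.0 in siRNA libraries and 206 ± 11.7 in NC libraries (log2 change -0.68, limma adjusted p = 0.00255), with -0.64 and -0.71 without each NC pair. ATOH8, a BMP target in liver cells, stood at 1.50, 1.95, 2.40 and 1.70 in siRNA libraries, against 8.70, 3.17, 9.23 and 13.7 in NC libraries, without overlap (log2 change -1.62, limma adjusted p = 0.00564), and the change was -2.10 and -1.15 without each NC pair. Targets known for TGF-beta thus stood on both sides, KLF10, SNAI2 and MMP2 higher and FN1 and TGFBI lower, while ID1, ID3, SMAD6 and ATOH8, known for BMP, were lower and ID2 did not pass.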

How the data were processed

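The deposited table holds 1 value per gene and library, a scaled read signal that the authors made by dividing reads by a scaled library size. Within a library every value was a whole multiple of the value of 1 read within 0.02 reads (100% of the values), with a smallest value of 2 reads in 4 libraries. HISAT2, HTSeq 0.12.4 and the build hg38 are named by the submitters' processing notes, as are Trimmomatic, FastQC, edgeR and DESeq2; no source used here gives their settings or the use of strand. Every gene was above 1 in at least 3 libraries, so low genes had been removed before deposit.

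Genes with at least 1 in at least 4 libraries (11812) were tested with limma 3.58.1 (R 4.3.3, trend and robust) on log2(value + 1), siRNA minus NC, with no replicate block, and p-values were Benjamini-Hochberg adjusted over all of them. The procedure was tested on simulated data. The simulated NC libraries did not lie in pairs, so that test cannot show the error rate for NC libraries like these. The table's column names are labelled counts but hold no whole numbers, so edgeR 4.0.16 and DESeq2 1.42.0 ran on the recovered reads as alternatives only; other alternatives were library totals alone, TMM factors, pseudocounts of 0.1 and 5, other filters, a replicate block, leaving out each library and leaving out each NC pair. Same-numbered libraries had correlations of -0.068, 0.15, -0.066 and 0.16 in their deviations from the group means, and were not treated as pairs.

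The named genes are all members with a row: each library's values are given for members past the threshold, without overlap or with split NC pairs, plus up to 3 other pathway genes with the smallest p in each direction. TGFBI, KLF10, SNAI2 and ATOH8, the remaining called genes among the other targets, and BMPR1B were added after their values were seen. Members and lists were chosen with earlier results of these data known. Positions and lengths came from GENCODE v29 on GRCh38 and promoters from RefSeq, by symbol.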

Additional observations from a re-analysis of the deposited data

Results flagged for a closer look

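In groups of 4 libraries, 5 values of single genes lay far from the other 3, by a gap over at least 0.829 of the range of the group; 108 groups were examined, and chance alone gives about 5% of groups. The counted NC reads of FST came from 1 library, NC replicate 2, at 0.350 scaled reads with the other 3 NC libraries at 0 (gap 1 of the range). PMEPA1 in NC replicate 1 stood at 0.473 (0.829 of the range), and TGFBI in NC replicate 1 at 223 (0.867). SMAD5 in siRNA replicate 2 stood at 53.4 (0.91), and SKIL in siRNA replicate 1 was the low one, at 62.1 (0.891).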

How the results depend on the processing

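With all 8 libraries 5015 genes passed, of them 14 higher and 6 lower pathway genes. edgeR called 5054 genes and ended the call of SMURF1 (adjusted p = 0.0575). DESeq2 called 5689 and added LTBP2, LTBP3 and SMAD1; library totals alone ended GDF11 (limma adjusted p = 0.0533) and added LTBP3 and SMAD1. Without NC replicates 1 and 2 7672 genes passed, with 23 pathway genes higher, INHBE, FST and PMEPA1 among them through the siRNA libraries only. Without NC replicates 3 and 4, 15 pathway genes were lower. Leaving out 1 library gave 3699 to 5459 genes, 7 to 16 pathway genes higher and 4 to 7 lower. Of the 20 called pathway genes 13 kept the call in every such fit that tested them, and 11 of these were tested in all 8 fits. The same share over all called genes was not computed, so nothing is concluded from this count. FST and PMEPA1 were tested only in the 4 fits that kept every siRNA library. A fit with replicate number as a block called 4546 genes, 12 pathway genes higher and 5 lower; the block ended the calls of GDF11, SMAD2 and SMURF2 (limma adjusted p = 0.0527, 0.0691 and 0.0834) and changed no other call of a pathway gene. Signs turned only in genes that did not pass with all libraries. INHBE was -1.03 by edgeR, -1.06 by DESeq2 and -0.22 with a pseudocount of 5, -0.54 to 0.81 with 1 library left out, and -1.72 without NC replicates 3 and 4. TGFBR2 was -0.066 by edgeR, -0.070 by DESeq2, -0.18 to 0.34 with 1 library left out, and -0.57 without NC replicates 1 and 2. With 1 library left out BMP4 was -0.66 to 0.052, BMP1 -0.14 to 0.13 and TGIF1 -0.031 to 0.36. Without NC replicates 3 and 4 BMP4 was 0.59, ACVR1 -0.30 and TGIF1 -0.32. Without NC replicates 1 and 2 BAMBI was 0.11, BMP1 0.29, THBS1 -0.32, SMAD3 0.051, SMAD7 0.16, SKI 0.25 and ID2 -0.039. The cause was not tested. LTBP2 and AMH were not tested in the fits without an NC pair. Depth limits FST and PMEPA1, whose NC libraries held at most 18 reads.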
